A study of Mus musculus with 6 samples.

Results

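The genes described here encode components of the basement membrane, and they are the 34 rows, of 34745 genes in the deposited expression table, whose symbols are those of collagen IV, XV and XVIII, the laminins *Lama1* to *Lama5*, *Lamb1* to *Lamb3*, *Lamc1* and *Lamc3*, the nidogens, perlecan, agrin and associated secreted proteins. The rule names genes and uses no measured value, but the list was drawn up with earlier results of these data known. RNA-seq was carried out on cardiac fibroblasts taken from left ventricles of male mice, 8 to 10 weeks old, on Day 7 after myocardial infarction (MI), for which the LAD, a main coronary artery, had been tied off for good. There were 3 libraries labelled KO, from KDM5B knockout mice in which CRISPR/Cas9 had removed the JmjC domain from the gene of this histone demethylase, and 3 libraries labelled WT, from littermate wild-type mice. All 6 libraries came from infarcted hearts, and no library of a sham-operated mouse is among them. How many mice went into each library is not given in the sources used here, so the p-values measure the spread between these libraries.

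Basement membranes are thin sheets of extracellular matrix that lie under endothelium and epithelium and surround each cardiomyocyte, smooth muscle cell and pericyte. Laminin trimers of an alpha, a beta and a gamma chain polymerize on the cell surface, collagen IV trimers form a covalently crosslinked network, and nidogens and perlecan connect the networks. In the heart, fibroblasts, mural cells, endothelial cells and cardiomyocytes all contribute chains, and the libraries do not resolve which of these a transcript came from. In such bulk samples fewer cells of a type and less RNA per cell cannot be told apart.

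Between 12025403 and 15329427 reads or fragments per library were counted on genes. *Kdm5b* was read to check the labels and had 98.1, 107 and 105 CPM (counts scaled to library size with TMM factors) in the libraries labelled KO, against 108, 129 and 123 CPM in the other 3, with a log2 fold change of -0.22 (edgeR adjusted p = 0.0574). It thus missed the threshold, though it passed under 3 of the 14 alternatives (upper quartile scaling, the replicate block and without WT replicate 1, with an adjusted p of 0.0324, 0.0271 and 0.0188), and the groups are called by their labels. Counts cover the whole gene and not the deleted part alone, so they check the labels only weakly. Of 10 fibroblast markers, all were counted in every library, and their summed level ran from 21801 to 25543 CPM under the KO label and from 30290 to 32762 CPM under the WT label, with 9 lower past the threshold (median log2 fold change -0.41). The 15 endothelial markers summed to between 1860 and 2549 CPM under the KO label and between 585 and 590 CPM under the WT label, with 12 higher past the threshold (median log2 fold change 2.31). The other 3 did not pass, with log2 fold changes of 0.08 for *Ptprb*, 0.0043 for *Cldn5*, a junction gene with 12 to 20 counts per library, and -0.82 for *Sox17*, at 9 to 43 counts. Mural, cardiomyocyte, macrophage and mesothelial markers, with 7, 9, 9 and 7 genes tested, had medians of -0.40, -0.42, -0.40 and -0.41, but *Mcam* (1.38) and *Abcc9* (0.84) of the mural, *Cd68* (1.38) of the macrophage and *Krt19* (1.53) of the mesothelial markers rose past the threshold on the log2 scale. Of the neutrophil markers *S100a8* (2.99) and *S100a9* (1.95) rose past it too. The cardiomyocyte markers summed to 1337 to 1404 CPM under the KO label and 1592 to 1633 CPM under the WT label. In the same order, macrophage markers summed to 1179 to 1224 and 1502 to 1552 CPM. Mural markers summed to 853 to 867 and 931 to 948 CPM, and mesothelial markers to 399 to 461 and 540 to 548 CPM. The 4 neutrophil markers summed to at most 8.93 CPM in any library, the 5 Schwann cell markers to at most 6.19 CPM, the 5 mast cell markers to at most 16.4 CPM, nearly all of it *Kit*, and the lymphocyte and erythroid markers to at most 0.225 CPM.

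Under the KO label 5 of the 6 collagen IV chains, *Lamb1*, *Lamc1* and 10 other basement membrane genes fell slightly, *Col18a1*, *Lama5* and *Lamb3* rose, and 13 genes did not pass the test. Of the 34 genes, all had counts, and 33 passed the expression filter of edgeR, with *Papln* left out at 1 to 14 counts per library. With p adjusted across the whole table and a threshold of 0.05, 17 of the 33 (51.5%) fell and 3 (9.09%) rose, whereas of all 14084 genes tested 12.5% fell, 17.7% rose and 30.2% passed in either direction. The median log2 fold change was -0.30 over the 33 genes and -0.02 over all genes tested. Falls were small, from -0.21 to -0.43 on the log2 scale, or 1.16-fold to 1.35-fold, and 0 exceeded 2-fold (a log2 fold change of -1), which 0.27% of all genes tested did, while 2 of the 3 rises exceeded 2-fold, as 5.99% of all genes tested did. All 17 genes that fell, and 4 that did not pass the test, had each library labelled KO below each library labelled WT in scaled CPM, 21 in all, against 22.4% of all genes tested. The 3 genes that rose stood above without overlap, against 24.7% of all genes tested. These falls were smaller than the median of the fibroblast markers (-0.41) in 15 of the 17 genes, the exceptions being *Ntn4* and *Smoc2*. The cardiomyocyte, macrophage and mesothelial markers had medians of similar size (-0.42, -0.40 and -0.41). Whether a changed share of RNA from any of these cell types or from endothelium has a part in the 17 falls was not tested.

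**Figure D1:**
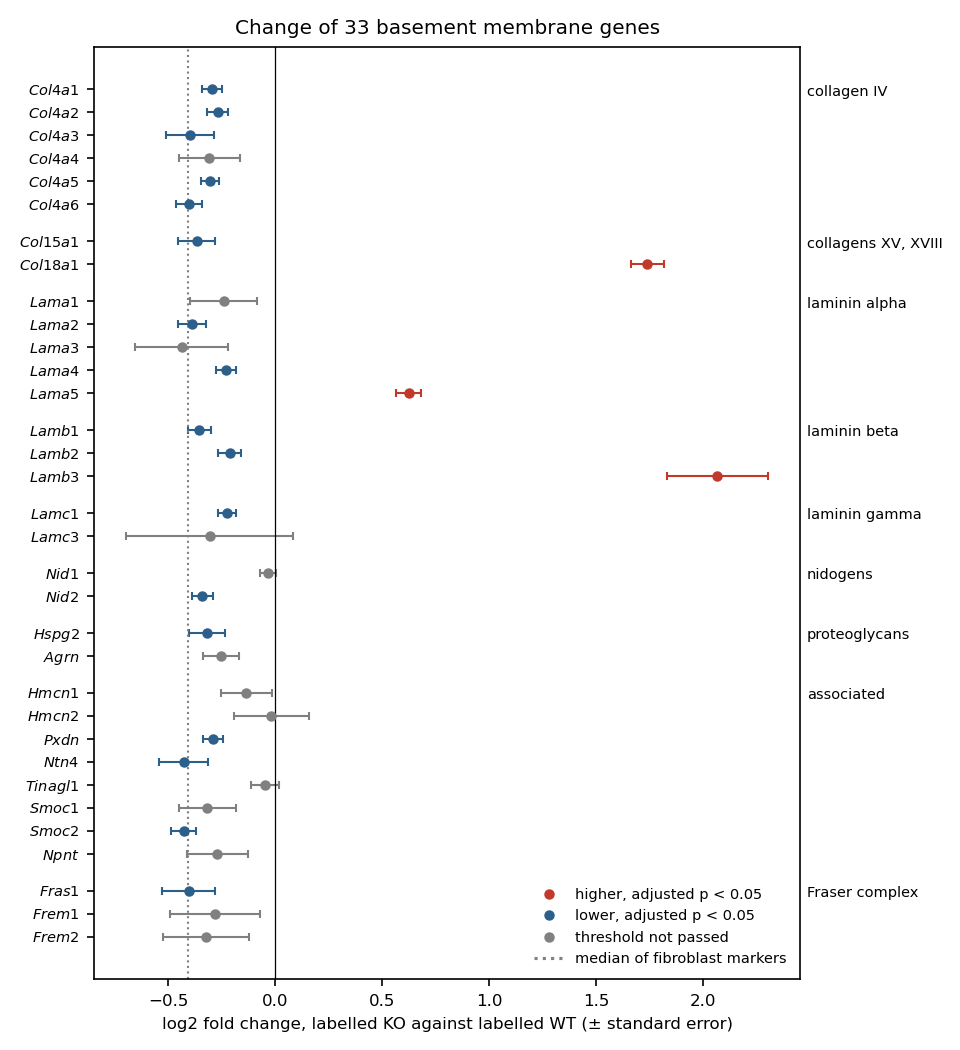
Log2 fold change (x axis, libraries labelled KO against libraries labelled WT, with standard error) of the 33 basement membrane genes that could be tested, grouped by role. Blue points passed an adjusted p of 0.05 as lower (17 genes), red points as higher (3 genes) and grey points did not pass, and the dotted line marks the median of the fibroblast markers at -0.41.

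Levels per gene length, given as FPKM (counts divided by gene length and library total), spanned 4 classes, with 5 genes at a mean of at least 100 FPKM, 12 from 10 to 100, 8 from 1 to 10 and 9 under 1 FPKM. The 5 most abundant, *Col4a1*, *Col4a2*, *Hspg2*, *Nid1* and *Lamc1*, made up 82.1% of the summed FPKM of all 34 genes. *Col4a1*, with a mean of 745 FPKM over all libraries, stood above *Col4a2* (530 FPKM) in every library, and *Col4a2* above *Hspg2* (201 FPKM). *Hspg2* and *Nid1* (158 FPKM) overlapped over the libraries. Among the 17 genes with a mean of at least 10 FPKM, 12 fell, 2 rose and 3 did not pass, and among the 16 tested genes below that level 5 fell, 1 rose and 10 did not pass. Of all 33 tested, 30 had a negative log2 fold change and 3 a positive one, so the genes that did not pass were negative too. The calls alone therefore do not place the fall in the abundant genes only. Summed over all 34 genes, the level was 1994 ± 84.4 FPKM (SD, n = 3) under the KO label and 2303 ± 43.6 FPKM under the WT label.

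**Figure D2:**
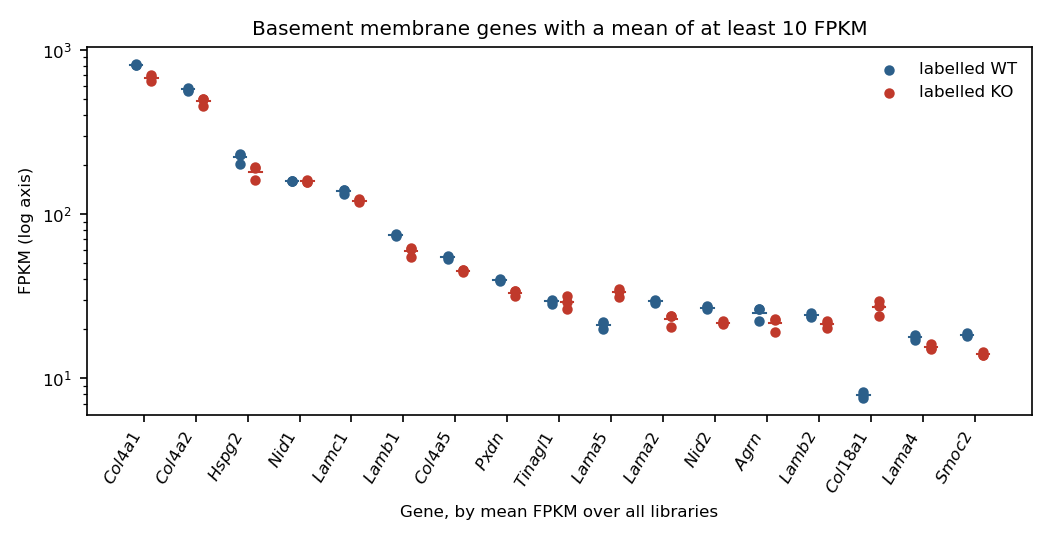
FPKM (log axis) of the 17 basement membrane genes with a mean of at least 10 FPKM, in the order of their mean over all libraries. Each point is a library (blue labelled WT, red labelled KO) and each bar the mean of 3, and the red points stand clearly above the blue ones for *Col18a1* and *Lama5*.

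Collagen IV is the covalent scaffold of every basement membrane, and its 6 chains are transcribed from 3 pairs of genes that lie head to head. In the deposited table *Col4a1* (ENSMUSG00000031502, mm10, chromosome 8 from 11198423 to 11312826, minus strand) and *Col4a2* (ENSMUSG00000031503, chromosome 8 from 11312805 to 11449287, plus strand) start 21 bases apart with first exons that overlap by 22 bases. *Col4a4* and *Col4a3* start 72 bases apart on chromosome 1, and *Col4a6* and *Col4a5* 1309 bases apart on chromosome X. A fall near -0.30 on the log2 scale, the median of the 33 genes tested, was not particular to *Col4a1* and *Col4a2*. The sequences before the start sites of *Col4a1* and *Col4a2* are shown because both genes fell together by close to the same amount. They are the 250 bases before each RefSeq start site in GRCm38.p6, 5′ to 3′ on the strand of the gene, at chr8:11312827-11313076 for *Col4a1* and chr8:11312555-11312804 for *Col4a2*. By these positions each window lies within the other gene of the pair. Capitals mark GGGCGG and CCAAT on either strand, which read CCGCCC and ATTGG on the other.
Col4a1: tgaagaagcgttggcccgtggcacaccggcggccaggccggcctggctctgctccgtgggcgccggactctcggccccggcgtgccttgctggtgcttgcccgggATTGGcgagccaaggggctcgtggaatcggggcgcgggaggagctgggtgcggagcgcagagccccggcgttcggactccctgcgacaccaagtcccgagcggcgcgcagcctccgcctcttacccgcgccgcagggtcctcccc
Col4a2: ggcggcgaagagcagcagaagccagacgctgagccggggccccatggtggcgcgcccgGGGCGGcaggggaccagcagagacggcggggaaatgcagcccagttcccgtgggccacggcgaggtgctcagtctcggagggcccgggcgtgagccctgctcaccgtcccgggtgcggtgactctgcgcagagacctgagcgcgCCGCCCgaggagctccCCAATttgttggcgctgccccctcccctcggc
A single CCAAT stands in each, on the other strand before *Col4a1*, and GGGCGG is found 2 times before *Col4a2* and not before *Col4a1*. Such windows were at hand for 24 of the 34 genes, with up to 2 start sites each, and they were also searched for TATAAA and for CCGGAAG, a form of the site of ETS factors. Of their 30 windows, 15 held GGGCGG, 10 CCAAT, 0 TATAAA and 1 CCGGAAG, where 32.7%, 33.8%, 12.4% and 6.91% of all 32851 windows of this length did, and the GC content was 74.4% before *Col4a1* and 73.6% before *Col4a2* against a median of 52.4%. A match is a run of letters and not a measured site, and no marked runs overlap in the windows shown.

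*Col4a1*, whose product forms the common trimer with that of *Col4a2*, had 641, 706 and 685 FPKM in the libraries labelled KO and 808, 810 and 822 FPKM in those labelled WT. *Col4a2* had 457, 504 and 500 FPKM against 564, 571 and 587 FPKM. Both genes were lower in each library labelled KO than in any labelled WT, with KO replicate 1 the lowest. The log2 fold changes from edgeR were -0.30 (standard error 0.05, adjusted p = 0.00242) for *Col4a1* and -0.27 (standard error 0.05, adjusted p = 0.00475) for *Col4a2*. The FPKM ratio of *Col4a1* to *Col4a2* was 1.39 ± 0.0186 (SD, n = 3) under the KO label and 1.42 ± 0.0154 under the WT label, with overlapping libraries (exact permutation test, two-sided, p = 0.3).

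Of the 4 minor collagen IV chains, 3 fell and *Col4a4* did not pass. *Col4a5*, on the X chromosome, had 44.1, 45.7 and 45.6 FPKM against 54.9, 53.4 and 55.3 FPKM, without overlap (log2 fold change -0.31, standard error 0.04, adjusted p = 0.00103 from edgeR). Its neighbour *Col4a6*, which forms trimers with it in smooth muscle and epithelium, fell by 0.40 on the log2 scale at 5.58 ± 0.140 FPKM against 7.22 ± 0.312 FPKM (SD, n = 3). The chains *Col4a3* and *Col4a4*, best known from the filtration barrier of the kidney, stood between 1.15 and 2.35 FPKM, with log2 fold changes of -0.40 (adjusted p = 0.0287) and -0.31 (adjusted p = 0.138 from edgeR), so the former passed and the latter did not. *Col4a3* lost the call under both limma settings and without KO replicate 1, KO replicate 3 or WT replicate 2 (adjusted p = 0.0807, 0.0835 and 0.0916). Over the 14 alternatives *Col4a4* ran from -0.41 to -0.17 on the log2 scale, the latter without WT replicate 2 (adjusted p = 0.388 from edgeR). Of the FPKM of the 6 chains, *Col4a1* held 55.6% under the KO label and 56.0% under the WT label, *Col4a2* 40.0% and 39.5%, *Col4a5* 3.71% and 3.75%, *Col4a4* 0.135% and 0.137%, and *Col4a3* 0.0981% and 0.106%, each with overlapping libraries. *Col4a6* held 0.473%, 0.442% and 0.462% under the KO label and 0.502%, 0.478% and 0.510% under the WT label, without overlap. These shares were not tested.

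Collagens XV and XVIII form the multiplexin family, collagens with interrupted triple helices that carry glycosaminoglycan chains and release angiogenesis-modulating fragments from their C termini, endostatin in the case of collagen XVIII. *Col18a1* (ENSMUSG00000001435, chromosome 10 from 77052178 to 77166548, minus strand) had 29.5, 24.1 and 27.7 FPKM under the KO label and 7.92, 7.59 and 8.26 FPKM under the WT label. The lowest library labelled KO was therefore well above the highest labelled WT, a 3.34-fold rise (log2 fold change 1.74, standard error 0.08, adjusted p = 5.1e-06 from edgeR). *Col15a1*, which encodes the related chain of microvessels and muscle, moved the other way with 4.07, 3.55 and 4.20 FPKM against 4.96, 4.62 and 5.34 FPKM (log2 fold change -0.37, standard error 0.09, adjusted p = 0.0130 from edgeR), and its adjusted p was just above the threshold without WT replicate 3. The rise of *Col18a1* held under each of the 14 alternative settings, from 1.65 to 1.82 on the log2 scale. RefSeq gives *Col18a1* a distal and a proximal start site, and the deposited counts cover the whole gene, so use of the start sites could not be compared. Both windows are shown because the gene has the largest rise among those above 10 FPKM, with the distal window at chr10:77166531-77166780 and the proximal at chr10:77113706-77113955 (GRCm38.p6, minus strand, 5′ to 3′, motifs in capitals as above).
Col18a1 distal: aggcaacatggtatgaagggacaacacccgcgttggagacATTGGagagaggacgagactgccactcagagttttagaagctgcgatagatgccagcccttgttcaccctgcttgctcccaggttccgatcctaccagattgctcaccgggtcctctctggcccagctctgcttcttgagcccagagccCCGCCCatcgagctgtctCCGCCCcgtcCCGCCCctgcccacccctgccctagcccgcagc
Col18a1 proximal: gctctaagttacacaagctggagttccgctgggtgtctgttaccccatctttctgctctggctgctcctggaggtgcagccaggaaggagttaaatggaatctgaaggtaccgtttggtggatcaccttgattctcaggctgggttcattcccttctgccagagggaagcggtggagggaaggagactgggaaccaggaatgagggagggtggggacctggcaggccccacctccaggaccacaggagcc
The distal window held GGGCGG 3 times, each on the other strand, and CCAAT once on the other strand, at a GC content of 62.0%. The proximal window held none of the 4 motifs.

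Laminin alpha chains carry the domains that cells bind, and they differ between tissues. Under the WT label *Lama2*, the chain of muscle basement membrane, was the most abundant of the 5 alpha chain genes per length, with 28.5, 30.1 and 29.4 FPKM, and under the KO label it had 20.7, 24.0 and 24.1 FPKM (log2 fold change -0.39, standard error 0.07, adjusted p = 0.00325 from edgeR). *Lama5* (ENSMUSG00000015647, chromosome 2 from 180176373 to 180225859, minus strand), a broadly used chain of vascular and epithelial basement membranes, had 34.003, 31.3 and 34.9 FPKM under the KO label and 19.9, 21.6 and 22.1 FPKM under the WT label. Its groups did not overlap, and it rose 1.54-fold (log2 fold change 0.62, standard error 0.06, adjusted p = 1.78e-04 from edgeR). *Lama4*, the other alpha chain of the vessel wall, fell by 0.23 on the log2 scale (standard error 0.05, adjusted p = 0.00744 from edgeR), with 15.4, 15.1 and 16.1 FPKM against 17.2, 17.9 and 18.3 FPKM. *Lama1*, mainly a chain of the embryo, had 2.43 ± 0.436 FPKM against 2.80 ± 0.425 FPKM (SD, n = 3), and *Lama3*, an epithelial chain, 0.339 ± 0.0644 FPKM against 0.452 ± 0.0919 FPKM, and neither passed the test (adjusted p = 0.281 and 0.164 from edgeR).

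Per gene length, *Lama5* stood above *Lama2* in each library labelled KO and below it in each labelled WT. In counts not divided by length, *Lama2* stayed above *Lama5* in KO replicate 2 (5809 against 5131) and KO replicate 3 (6733 against 6607), so this order holds per length only. *Lama5* supplied 47.0%, 42.5% and 44.8% of the alpha chain FPKM under the KO label and 29.1%, 29.6% and 30.1% under the WT label, a difference of 15.2 percentage points. The share of *Lama2* was 30.7% ± 2.05 (SD, n = 3) against 41.0% ± 0.792, and that of *Lama4* 20.8% ± 0.378 against 24.9% ± 0.291. These 3 shares did not overlap between the labels, and p was 0.1 for each in the exact permutation test (two-sided), the smallest p that 3 libraries against 3 allow (adjusted p = 0.183 over 11 such tests, which are the 10 laminin chain shares and the collagen IV ratio). The summed level of the 5 alpha chain genes was 74.6 ± 2.85 FPKM under the KO label and 71.6 ± 2.72 FPKM under the WT label (SD, n = 3). A share does not depend on how the libraries are scaled. The window before *Lama5*, at chr2:180225860-180226109 (GRCm38.p6, minus strand, 5′ to 3′), is shown as that of the only alpha chain gene that rose.
Lama5: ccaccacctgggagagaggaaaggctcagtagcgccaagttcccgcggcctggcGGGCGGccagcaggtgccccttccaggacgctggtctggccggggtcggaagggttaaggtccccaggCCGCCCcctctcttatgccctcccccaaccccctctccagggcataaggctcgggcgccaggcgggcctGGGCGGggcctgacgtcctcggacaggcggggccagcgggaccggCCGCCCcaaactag
It held GGGCGG 4 times over both strands, none of the other 3 motifs, and a GC content of 72.4%.

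**Figure D3:**
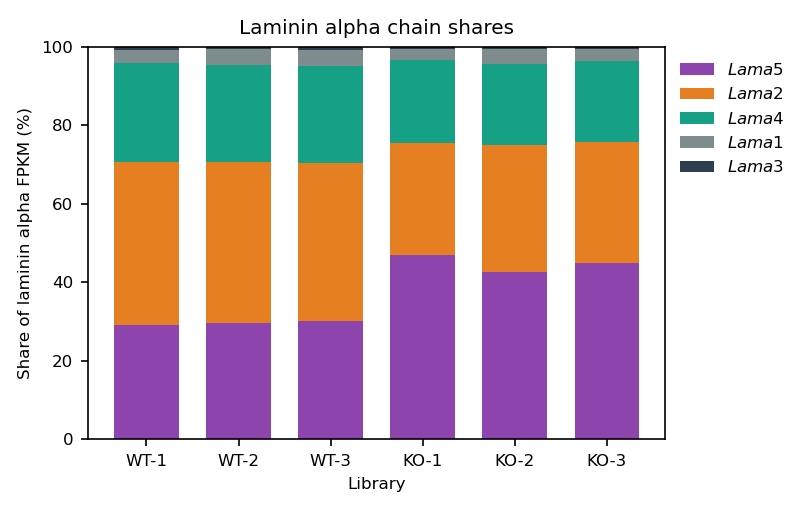
Share of each laminin alpha chain gene in the summed FPKM of the 5 alpha chain genes (y axis, %), for each library (x axis). The *Lama5* segment takes 42.5% to 47.0% under the KO label and 29.1% to 30.1% under the WT label.

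Of the beta chain genes, *Lamb1*, the main partner in vessels and stroma, had 55.1, 61.4 and 61.8 FPKM against 73.2, 74.6 and 75.3 FPKM and fell by 0.36 on the log2 scale (standard error 0.05, adjusted p = 0.00189 from edgeR). *Lamb2*, the beta chain of the neuromuscular junction, kidney and mature vessels, had 20.2, 22.2 and 21.6 FPKM against 23.5, 24.0 and 25.0 FPKM (log2 fold change -0.21, standard error 0.06, adjusted p = 0.0211), and its adjusted p was 0.0527 without KO replicate 1, 0.0538 without KO replicate 3, 0.0591 without WT replicate 2 and 0.0723 without WT replicate 3. *Lamb3* (ENSMUSG00000026639), a chain of the laminin that anchors epithelia through hemidesmosomes, had 2.00, 1.07 and 1.49 FPKM in the libraries labelled KO and 0.335, 0.383 and 0.339 FPKM in those labelled WT. The libraries did not overlap, at 194, 115 and 184 counts against 39, 46 and 39, a 4.19-fold rise (log2 fold change 2.07, standard error 0.24, adjusted p = 4.77e-04 from edgeR). Even so *Lamb3* supplied 1.87% of the beta chain FPKM under the KO label and 0.356% under the WT label. On the log2(FPKM + 1) scale its difference was 0.88, which understates the change of a gene at this level.

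The gamma chain came almost wholly from *Lamc1*, which encodes the partner in most laminin trimers, with 99.9% of the FPKM of the 2 gamma chain genes listed. *Lamc1* had 118, 121 and 124 FPKM against 133, 141 and 140 FPKM, without overlap (log2 fold change -0.23, standard error 0.04, adjusted p = 0.00559 from edgeR). *Lamc3* had 12 to 30 counts in each library and did not pass (adjusted p = 0.587). Thus *Lama4*, *Lamb1* and *Lamc1*, the chains of a vascular laminin trimer, fell by 0.23, 0.36 and 0.23 on the log2 scale, while *Lama5*, which shares the same beta and gamma partners, rose.

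Nidogens bridge the laminin and collagen IV networks. *Nid1* had 157, 157 and 161 FPKM against 158, 158 and 159 FPKM, overlapping in FPKM, and it did not pass the test (log2 fold change -0.04, standard error 0.04, adjusted p = 0.498 from edgeR). *Nid2* had 21.2, 22.4 and 21.6 FPKM against 27.5, 26.3 and 27.0 FPKM (log2 fold change -0.34, standard error 0.05, adjusted p = 0.00147). The 437 exon bases that *Nid2* shares with *Rtraf* on the other strand make up 8.45% of its exon bases, and as it is not stated whether reads were counted by strand, the count of *Nid2* is uncertain. What share of its reads falls on those bases was not measured. *Hspg2*, which encodes the large heparan sulfate proteoglycan perlecan, had 160, 194 and 190 FPKM against 202, 228 and 233 FPKM (log2 fold change -0.32, standard error 0.09, adjusted p = 0.0234 from edgeR), with KO replicate 1 the lowest. That call was lost without WT replicate 2 or WT replicate 3 (adjusted p = 0.0741 and 0.0814). Agrin, known for clustering receptors at the neuromuscular synapse, had 22.5, 19.2 and 22.9 FPKM against 26.3, 22.4 and 26.5 FPKM (*Agrn*, log2 fold change -0.25, adjusted p = 0.0535), just outside the threshold, and its libraries overlapped in FPKM. It passed under 5 of the 14 alternatives, and over all 14 the adjusted p ran from 0.00637 to 0.154.

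Of the 9 associated genes, 3 fell, 5 did not pass and *Papln* could not be tested. *Pxdn*, whose product peroxidasin forms the sulfilimine crosslinks of collagen IV, had 31.6, 34.013 and 34.013 FPKM against 39.7, 39.1 and 40.3 FPKM (log2 fold change -0.29, standard error 0.05, adjusted p = 0.00228 from edgeR). *Smoc2*, a calcium-binding matricellular protein, had 13.8, 14.5 and 13.8 FPKM against 18.2, 18.4 and 18.8 FPKM and fell by 0.43 on the log2 scale (standard error 0.06, adjusted p = 0.00118). *Ntn4*, which encodes a netrin that binds laminin gamma chains, fell by 0.43 at 4.18 ± 0.566 FPKM against 5.51 ± 0.227 FPKM (SD, n = 3, adjusted p = 0.0224 from edgeR), and lost the call without KO replicate 3, WT replicate 2 or WT replicate 3 (adjusted p = 0.0533, 0.0646 and 0.0662). *Tinagl1*, a matricellular protein of vascular basement membrane, had 31.5, 26.4 and 29.2 FPKM against 29.6, 29.9 and 28.4 FPKM, with overlapping libraries and a log2 fold change of -0.05 (adjusted p = 0.599). The log2 fold changes of *Hmcn1*, *Hmcn2*, *Smoc1* and *Npnt*, at a mean of at most 1.43 FPKM, were -0.14, -0.02, -0.32 and -0.27, and none passed. In the Fraser complex, which *Fras1*, *Frem1* and *Frem2* build under embryonic epithelium, each gene stood under 1 FPKM, and *Fras1* passed as lower (log2 fold change -0.41, adjusted p = 0.0397 from edgeR) but lost the call under 10 of the 14 alternatives, 5 of which left out a library (adjusted p from 0.0669 to 0.132).

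*Col18a1*, *Lamb3* and *Lama5* were compared with the endothelial markers library by library because those markers rose under the same label. Relative to the mean of the libraries labelled WT, KO replicates 1, 2 and 3 stood at 3.62, 2.98 and 3.41 for *Col18a1*, at 5.51, 2.99 and 4.12 for *Lamb3* and at 1.56, 1.45 and 1.61 for *Lama5*. The summed endothelial markers stood at 4.33, 3.16 and 3.66, with replicate 1 the highest in 11 of the 15 genes taken singly. Replicate 2 was thus the lowest of the 3 for these genes and the sum, and replicate 1 the highest for all but *Lama5*. *Lama4* and *Col4a1*, which endothelial cells also transcribe, stood at 0.840, 0.836 and 0.881 and at 0.766, 0.853 and 0.821. The summed fibroblast markers stood at 0.684, 0.802 and 0.759, with replicate 1 the lowest as in *Col4a1*, *Lama2* and *Hspg2*. *Col1a1* and *Col1a2* make up most of that sum, and taken singly 7 of the 10 genes were lowest in replicate 1, the exceptions being *Pdgfra*, *Dpt* and *Tcf21*. With 3 libraries these orders are a description, and the part of endothelial RNA in the 3 rises was not tested.

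**Figure D4:**
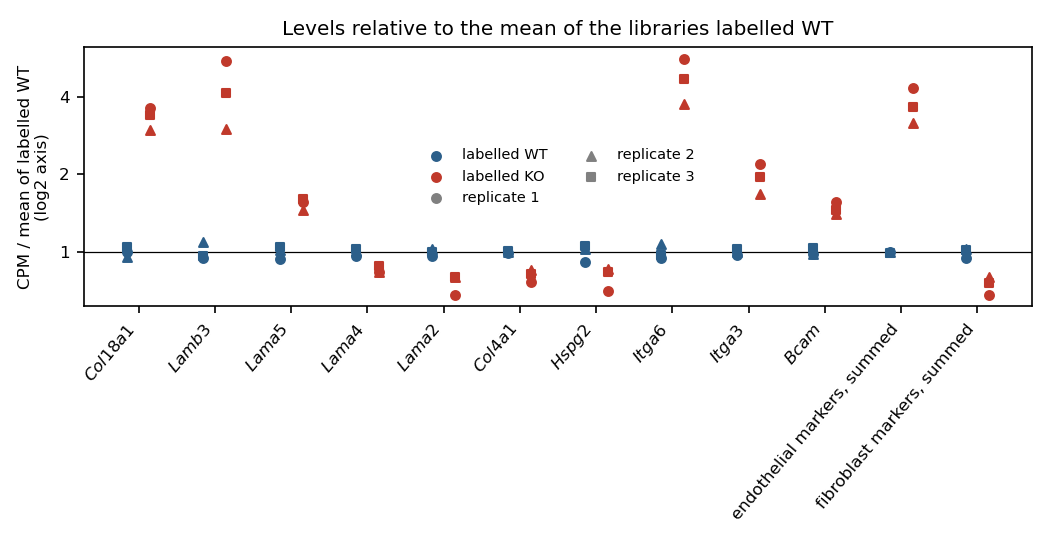
CPM of 7 basement membrane genes, 3 laminin receptor genes and the summed endothelial and fibroblast markers, each divided by the mean of the libraries labelled WT (log2 axis, the marker shape gives the replicate number). In the libraries labelled KO, *Col18a1* stands between 2.98 and 3.62 and the summed endothelial markers between 3.16 and 4.33, whereas *Lama4* stays between 0.836 and 0.881.

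Receptors for basement membrane moved in both directions. Of 19 receptor genes listed 18 could be tested, and 4 rose and 8 fell, around a median of -0.29 on the log2 scale, where 17.7% of all genes tested rose and 12.5% fell. A count of 4 rises in 18 is near that background and is no result about receptors as a list. The 3 largest rises were in integrin alpha subunits. *Itga6*, a laminin-binding subunit, had 193, 130 and 162 CPM against 32.8, 37.1 and 33.6 CPM (log2 fold change 2.23, standard error 0.14, adjusted p = 2.13e-05 from edgeR). *Itga2*, which pairs with the beta 1 subunit as a collagen receptor, rose by 1.31 at 16.6, 10.4 and 11.2 CPM against 4.76, 4.44 and 6.19 CPM, and *Itga3*, a receptor subunit for laminins with the alpha 5 chain, by 0.96 at 218, 167 and 195 CPM against 96.8, 99.9 and 102 CPM (adjusted p = 0.00274 and 1.81e-04 from edgeR). *Bcam*, the Lutheran glycoprotein that binds the laminin alpha 5 chain, was the fourth gene that rose, with 47.1, 42.3 and 43.8 CPM against 29.6, 29.8 and 31.2 CPM (log2 fold change 0.56, standard error 0.07, adjusted p = 7.51e-04). These 4 genes did not overlap between the labels, standing above under the KO label as 24.7% of all genes tested did, and replicate 1 was the highest of the libraries labelled KO in each, as in the summed endothelial markers. With 3 libraries this order is a description. How many of all genes share it was not counted, and a link to the endothelial markers was not tested. Unlike these 4 genes the beta subunits fell, with log2 fold changes of -0.20 for *Itgb1* and -0.47 for *Itgb4*, the latter the largest fall of the list, followed by the glypican *Gpc1* (-0.43) and the syndecan *Sdc3* (-0.43). *Itga7*, the laminin receptor subunit of muscle, and *Dag1*, the dystroglycan gene, had log2 fold changes of 0.06 and -0.03 and did not pass (adjusted p = 0.542 and 0.893).

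Of 21 genes for collagen assembly and matrix turnover, 11 fell and 0 rose by edgeR with a median of -0.26, while library size scaling and limma each called 1 as higher. The 3 largest falls were in the collagen prolyl hydroxylase gene *P3h3* (-0.53, adjusted p = 0.0397, with overlapping libraries), the gelatinase gene *Mmp2* (-0.44, adjusted p = 8.01e-04) and its inhibitor family member *Timp1* (-0.44, adjusted p = 0.00116 from edgeR). *Loxl2*, which encodes an enzyme that crosslinks collagen IV, fell by 0.39. Of 14 further basement membrane or associated genes, 13 had a row and 8 could be tested, and 6 fell and 0 rose by edgeR. Under the other settings 0 rose, and between 4 and 6 fell where no fold threshold was added. *Matn2*, *Fbln1* and *Ntn1* fell most, by 0.51, 0.48 and 0.45 on the log2 scale, and the collagen-binding glycoprotein gene *Sparc* by 0.36. At the same threshold 17.7% of all genes tested rose and 12.5% fell.

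**Figure D5:**
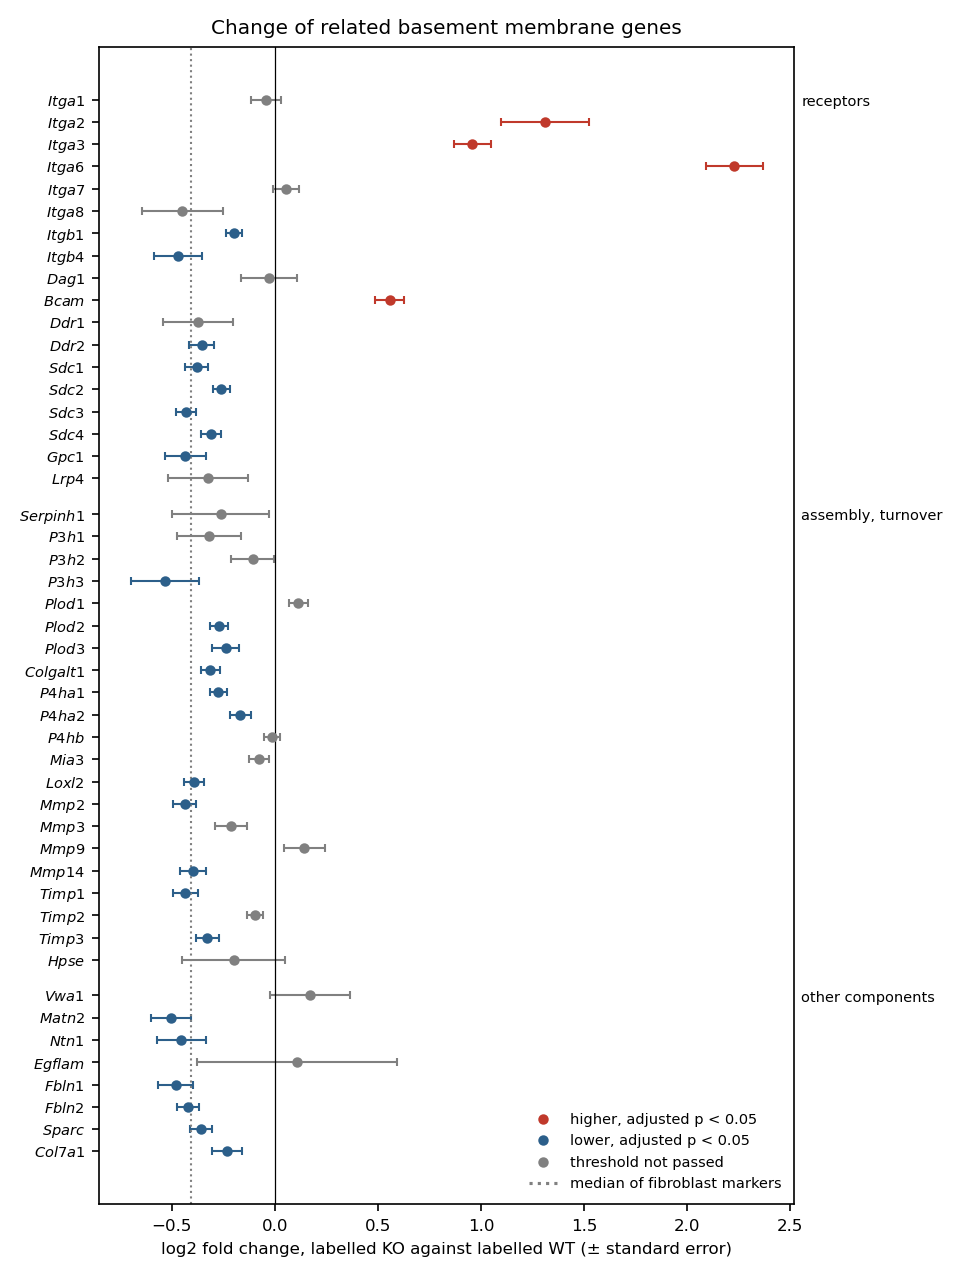
Log2 fold change (x axis, libraries labelled KO against libraries labelled WT, with standard error) of the related genes tested, in the lists of receptors, assembly and turnover, and other components. Red points passed as higher, blue as lower and grey did not pass, and the 4 red points are the receptor genes *Itga2*, *Itga3*, *Itga6* and *Bcam*.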

How the data were processed

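The authors aligned paired-end reads with HISAT2 (default settings, mm10), and they deposited raw counts per gene and FPKM for each library. The deposited FPKM values were the counts divided by gene length and library total, and the gene lengths they imply had a relative spread of at most 7.8e-04 over the libraries. GRCm38.p4 and edgeR are named in the submitters' processing notes, and the counting tool, annotation release and strand setting are not given in the sources used here.

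The main test on the counts was that of edgeR 4.0.16 under R 4.3.3 (filterByExpr, TMM, glmQLFit and glmQLFTest, Benjamini-Hochberg adjustment over the 14084 genes tested), with 3 libraries per label and no covariate. No such floor entered that test, but 3 counts per gene were added in an alternative for the laminin shares and the collagen IV ratio. This floor equals 0.249 CPM before TMM scaling in the library with the lowest total, and such floors cover counting error only. Replicate pairs differed beyond the sampling noise of reads, so none is a mere repeat run of the same library. Whether they came from different mice cannot be told from this. Alternatives were other filters, DESeq2 1.42.0, library size and upper quartile scaling, limma 3.58.1 on log2(FPKM + 1) and log2(FPKM + 0.1), a replicate block, each library left out, and a log2 fold change above 1. Laminin shares were FPKM shares compared by exact permutation. Exon overlaps came from GENCODE for GRCm38, and start site sequences from RefSeq GRCm38.p6. Values in every library are given for genes past the threshold with an absolute log2 fold change of at least 0.5, for those with a mean of at least 10 FPKM and for the main laminin chains, and of each related list the 3 largest rises and falls past the threshold are named, with further members named after their values were seen. The members, lists and tests were chosen with earlier results of these data known.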

Additional observations from a re-analysis of the deposited data

How the results depend on the processing

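All 3 rises (*Col18a1*, *Lama5* and *Lamb3*) and 11 of the 17 falls passed under each of the 14 alternatives run per gene. The falls that lost the call in at least 1 were *Col4a3*, *Col15a1*, *Lamb2*, *Hspg2*, *Ntn4* and *Fras1*. Signs turned only in genes that did not pass. These were *Lamc3* without WT replicate 2 (0.16), *Tinagl1* without KO replicate 2 (0.0194) and *Hmcn2* with library size (0.0156), with limma on log2(FPKM + 1) and log2(FPKM + 0.1) (0.00414 and 0.0139) and without KO replicate 3, WT replicate 1 or WT replicate 2 (0.10, 0.02 and 0.03). Over the fits that left out a library *Lamc3* ran from -0.55 to 0.16, *Hmcn2* from -0.11 to 0.10 and *Tinagl1* from -0.10 to 0.0194, and the cause was not tested. Leaving out a library gave 3 rises and between 13 and 16 falls among the members. Over all genes it gave between 2013 and 2508 rises and between 1131 and 1614 falls, with 1131 without KO replicate 3. Upper quartile scaling gave 2210 rises and 2263 falls over all genes and library size 2739 and 1424, against 2488 and 1760, so rises were 49.4%, 65.8% and 58.6% of the calls. A log2 fold change above 1 in addition left 844 rises and 38 falls over all genes, 2 rises and 0 falls among the members, 2 rises and 0 falls among the related genes (receptors 2 and 0, assembly and turnover 0 falls, other components 0 falls), by construction. Assembly and turnover genes had 1 rise with library size, 1 with limma on log2(FPKM + 1) and 1 on log2(FPKM + 0.1). Without division by length the difference in share was -2.97 percentage points for *Lama4* and -2.27 for *Lamb1*, and that of *Lama5* was 14.02, by construction.

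With the replicate number as a block, 18 members fell and 3 rose. It added *Agrn* (adjusted p = 0.00637) and *Col4a4* (0.0469) and lost *Fras1* (0.0694). Same-numbered libraries deviated together with correlations of only 0.0168, 0.0172 and 0.0307 across genes (each library correlating best with its own number, a hint from the data only), so the numbers are not taken as pairs. Depth was lowest for *Lamc3*, with 12 to 30 counts per library, and *Papln*, with 1 to 14.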
